A study of Arabidopsis thaliana with 3 samples.

Results

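The nuclear genes of the 2 photosystems and their light-harvesting antennae were examined in *Arabidopsis thaliana* plants that overexpress *SlHsfA3*, a heat stress transcription factor of tomato. A gene on chromosomes 1 to 5 was taken as a member when its deposited description contained the word photosystem, the phrase light harvesting complex (with or without a hyphen) or the phrase chlorophyll A/B binding. This rule found 63 of the 33602 genes in the table. Of these, 13 were named as subunits of photosystem I (PSI) and 11 as subunits of photosystem II (PSII). Antenna genes numbered 6 for PSI (LHCI) and 13 for PSII (LHCII), and 20 were assembly factors and related genes. RNA was sequenced from 3 libraries, OE line #3, OE line #6 and Col-0, the wild type grown beside them, each from the pooled aerial parts of 20 plants. The plants were 4 weeks old, unstressed, and grown at 22°C with 16 h of light and 8 h of darkness. In both OE lines the 35S promoter, which is active in most plant tissues, drives *SlHsfA3*, and the lines are independent transformants of the third generation. Each line is 1 pool and Col-0 is 1 pool, so the only replication is between the OE lines. The p-values and SE rest on that spread, mostly as pooled over all genes and less on that of the gene itself. They assume that a second Col-0 pool would have varied as the lines did.

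In the thylakoid membrane, PSII takes electrons from water and PSI passes them on to ferredoxin, and both are fed with light energy by chlorophyll a/b-binding antenna proteins. The reaction-center proteins are encoded in the plastid genome, whereas most peripheral subunits and all antenna proteins are encoded in the nucleus and imported. Nuclear photosystem and antenna genes are among the most abundantly transcribed genes of green leaves and are known for their control by light through promoter elements such as the G-box and the I-box.

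None of the 62 members tested was called higher or lower in the OE lines than in Col-0 by edgeR's quasi-likelihood test with Benjamini-Hochberg adjustment over all genes, at an adjusted p under 0.05. In the same fit 80 of 18802 genes (0.425%) were called, 43 of them higher (0.229%) and 37 lower (0.197%). At an unadjusted p under 0.05, edgeR picked 4 members and DESeq2 picked 2, against 7.38% of all genes in edgeR, and DESeq2 also called no member. The 4 were *LHCB1.4*, *PSBTN1* and *PSBTN2*, with more reads in the OE lines, and *PPD2*, with fewer, and the smallest adjusted p among all members was 0.314 for *PPD2*. The log2 fold changes of the members lay between −0.66 and 0.55 with a median of −0.053, beside a median of 0.0058 over all tested genes. By more than 0.5 on the log2 scale, 3 members (4.84%) differed, against 16.2% of all tested genes. The tested genes include those with as few as 10 reads in 1 library. No share was taken among genes with as many reads as the members, so whether the narrower spread follows read number was not tested. The remaining member, the *PSBO*-like gene *AT4G37230*, had 0 reads in both OE lines and 1 read in Col-0 and was not tested.

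**Figure D1:**
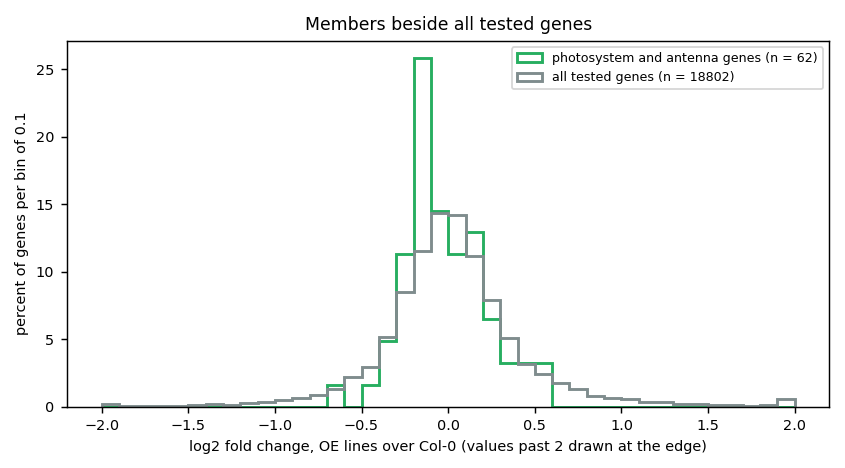
Distribution of the log2 fold change of OE lines over Col-0, in percent of genes per bin of 0.1, for the 62 tested photosystem and antenna genes and for all 18802 tested genes. The members lie between −0.66 and 0.55, whereas the distribution of all genes has tails on both sides. The sets were not matched for read number.

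The libraries held 11556077 reads in genes for line #3, 10786332 for line #6 and 9968154 for Col-0. Members took 2.95% of these reads in line #3, 3.08% in line #6 and 2.92% in Col-0. Reads of ribosomal RNA, which remained after poly(A) selection, took 32.5% in line #3, 20.9% in line #6 and 26.6% in Col-0, and of the reads of nuclear genes other than ribosomal RNA the members took 4.56%, 4.01% and 4.11% in the same order. Green tissue was evident from its markers, as 6 of 6 had reads in every library and summed to 24777 and 24610 CPM (reads scaled to a common library size with TMM factors) in lines #3 and #6 and 28223 CPM in Col-0. The 4 root markers summed to 9 and 10 reads in lines #3 and #6 and 17 in Col-0, with *CASP2* at 0 in every library. The 8 tapetum and pollen coat markers summed to 1133 reads in line #3, 27 in line #6 and 288 in Col-0, a sum carried mostly by *GRP17*, *ATA20* and *ATA27*. *MS2* and *A9* did not follow this order, with 6 and 5 reads in line #3, 4 and 1 in line #6 and 22 and 21 in Col-0. In line #6, 4 of the markers (*GRP19*, *ATA27*, *EXL4* and *EXL6*) were at 0, and the part of floral tissue in the values that follow was not tested. In pooled aerial parts, fewer cells of a type and less RNA per cell cannot be told apart.

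Many subunit and antenna genes, but not the assembly and related genes, were near the top of the leaf transcriptome in every library. Of the 100 nuclear genes with the most reads per kilobase, 29 were members in line #3, 25 in line #6 and 26 in Col-0. In CPM per kilobase of gene model, the highest members were *PSBR*, which encodes a small subunit near the oxygen-evolving complex, with 2494 in line #3, 2690 in line #6 and 3154 in Col-0, and *LHCB1.3*, with 2847, 2400 and 1977. These genes exchanged first and second place between line #3 and the other libraries. The subunit and antenna genes other than *PSBP2*, *LHCB4.3*, *LHCA5* and *LHCA6* all stood at 121 CPM per kilobase or more in every library, whereas the assembly and related genes reached at most 217 (*THF1* in Col-0).

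**Figure D2:**
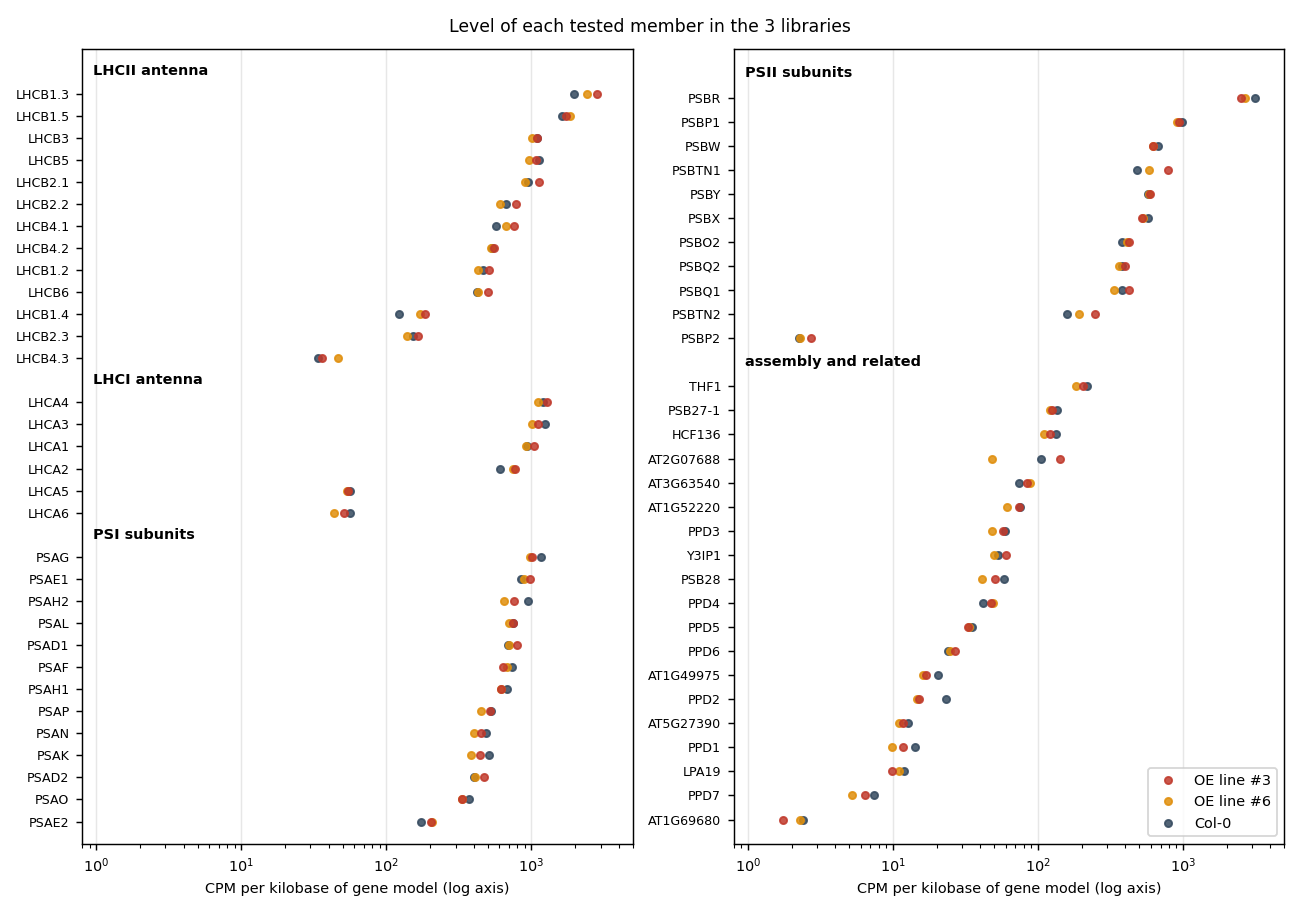
Level of each tested member in OE line #3, OE line #6 and Col-0, in CPM per kilobase of gene model on a log axis, with members grouped by complex and ordered by their mean level. *PSBR* and *LHCB1.3* are highest, most other subunit and antenna genes lie above 121, and the assembly and related genes reach at most 217.

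The largest antenna family, *LHCB1*, encodes the bulk of the LHCII trimers that surround PSII. *LHCB1.3* had 32447 reads in line #3 and 29161 in line #6, against 20191 in Col-0, and *LHCB1.5* had 19644 and 22399 against 16565. In CPM, *LHCB1.3* stood at 2972 and 2506 in the OE lines and 2064 in Col-0, a log2 fold change of 0.41 (SE 0.27). Both OE lines were above Col-0, but the difference missed the threshold (adjusted p = 0.824 in edgeR). *LHCB1.4* differed most of all antenna genes, with 2030 and 1991 reads in lines #3 and #6 and 1196 in Col-0. Its CPM of 186 and 171 in the OE lines and 122 in Col-0 gave a log2 fold change of 0.55 (SE 0.19, unadjusted p = 0.013, adjusted p = 0.461 in edgeR). *LHCB1.4* is a minor copy and took only 2.61% and 2.64% of the *LHCB1* reads in lines #3 and #6 and 2.09% in Col-0.

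The *LHCB1* copies did not keep the same proportions in the 3 libraries. *LHCB1.3* took 41.7% (95% Wilson interval 41.4 to 42.1) of the family's reads in line #3 and 38.7% (38.4 to 39.0) in line #6, against 35.3% (34.9 to 35.7) in Col-0. *LHCB1.1*, which the wording of its description keeps out of the members, took 23.2% and 22.2% in lines #3 and #6 and 25.6% in Col-0. *LHCB1.5* took 25.3% in line #3, 29.7% in line #6 and 28.9% in Col-0, so for this copy the OE lines lay on both sides of Col-0. Such shares do not depend on the scaling between libraries, but the intervals cover counting error only and line #3 and line #6 differed from each other by more than these intervals. Reads that match several copies could also have been assigned to any of them. Of the 100-base windows along the TAIR10.1 transcripts, 3.27% of *LHCB1.3* windows occurred in *LHCB1.1* and 4.23% of *LHCB1.5* windows in *LHCB1.4*. Only windows identical in all 100 bases were counted, so stretches in which the copies differ slightly are left out.

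*LHCB2*, whose products share the trimers with those of *LHCB1* and are known for the phosphorylation used in state transitions, held similar proportions in the 3 libraries. *LHCB2.1* took 55.8% of the family's reads in line #3, 56.2% in line #6 and 54.9% in Col-0, and 12.4% of the windows of *LHCB2.2* were found in *LHCB2.1*. The summed family stood at 2224 CPM in line #3 and 1782 in line #6, against 1903 in Col-0, so the OE lines lay on both sides of Col-0. For *LHCB3*, which encodes the remaining trimer protein, the log2 fold change was −0.053 (SE 0.23).

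The monomeric antenna proteins CP29, CP26 and CP24, which link the trimers to the PSII core, are encoded by *LHCB4*, *LHCB5* and *LHCB6*. *LHCB4.1* had 10105 and 9530 reads in lines #3 and #6 and 6852 in Col-0, while *LHCB4.2* had 6745 and 6864 against 5864. In CPM, *LHCB4.1* was at 926 and 819 in the OE lines and 701 in Col-0 (log2 fold change 0.32, SE 0.23), whereas *LHCB4.2* was at 618 and 590 against 600 (0.010, SE 0.21). *LHCB4.1* therefore took 58.5% (57.7 to 59.2) and 56.1% (55.3 to 56.8) of the *LHCB4* reads in lines #3 and #6 and 52.4% (51.5 to 53.2) in Col-0. The third copy, *LHCB4.3*, was the antenna gene with the most reads in line #6 relative to line #3, at 40.1 CPM in line #3, 51.7 in line #6 and 38.0 in Col-0. *LHCB5* had the lowest fold change of the LHCII genes, −0.15 (SE 0.24), and none of these differences passed edgeR's test.

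Over the 13 LHCII genes the median log2 fold change was 0.10, both OE lines were above Col-0 for 6 genes (34.9% of all tested genes), both were below for 1 (34.6% of all tested genes), and Col-0 lay between the lines for 6. The group summed to 12412 CPM in line #3 and 11093 in line #6, against 10695 in Col-0. With all reads in genes as the scaling, the group took 1.173% of the reads in line #3 and 1.197% in line #6, against 1.049% in Col-0. Both OE lines were above Col-0 on either scale, but which line was higher depended on the scaling.

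The 4 major LHCI proteins, LHCA1 to LHCA4, form the crescent of dimers on one side of PSI. *LHCA4*, *LHCA3* and *LHCA1* had the highest levels of the group. *LHCA2* showed the largest difference, with 9274 and 9647 reads in lines #3 and #6 and 6597 in Col-0, or 849 and 829 CPM against 675, a log2 fold change of 0.32 with an SE of 0.22 (adjusted p = 0.854 in edgeR). *LHCA3*, its partner in the dimer, was at 1328 and 1202 CPM in the OE lines and 1478 in Col-0 (−0.22, SE 0.24). The OE lines thus lay above Col-0 for *LHCA2* and below it for *LHCA3*, although neither gene passed the test. *LHCA4* was at 1616, 1417 and 1532 CPM in line #3, line #6 and Col-0, with Col-0 between the lines. *LHCA5* and *LHCA6*, which connect PSI with the NADH dehydrogenase-like complex, were the low-level genes of the group, at 51.5 to 54.4 CPM per kilobase in line #3, 43.3 to 53.2 in line #6 and 55.8 to 56.1 in Col-0. The LHCI genes summed to 5055 and 4562 CPM in lines #3 and #6 and 4834 in Col-0.

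Among the 13 PSI subunit genes, both OE lines were below Col-0 for 8 (34.6% of all tested genes) and above it for 4 (34.9% of all tested genes). *PSAP*, counted among the 8, is named photosystem I P subunit but also *CURT1B*, for curvature thylakoid. *PSAH2* was furthest below Col-0, with 503 and 431.5 CPM in lines #3 and #6 and 627 in Col-0, and its log2 fold change of −0.43 had an SE of 0.21 (adjusted p = 0.721 in edgeR). The PSI-H subunit is part of the docking site of LHCII on PSI, and its other copy, *PSAH1*, was nearer to Col-0 (−0.13, SE 0.20). *PSAH1* therefore took 44.9% (43.9 to 45.9) and 48.6% (47.6 to 49.6) of the *PSAH* reads in lines #3 and #6, against 41.7% (40.8 to 42.6) in Col-0. In TAIR10.1 both genes overlap a neighbor on the chromosome (*ROPGEF13* for *PSAH1*, *ROPGEF11* for *PSAH2*), and double-stranded cDNA was sequenced with no stated strand-marking step, so the reads of the overlap cannot be told apart. *PSAE2*, the minor copy of a stromal subunit near the ferredoxin site, had the highest fold change of the group, 0.24 on the log2 scale (SE 0.18), at 123 and 125 CPM in the OE lines and 105 in Col-0. *PSAG*, *PSAE1* and *PSAH2* had the highest levels per kilobase in the group. *PSAK*, a peripheral subunit on the LHCI side, was furthest apart between the lines, at 336 CPM in line #3, 288 in line #6 and 384 in Col-0, and *PSAF*, on the plastocyanin side, was relatively higher in line #6 (−0.17, SE 0.22).

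*PSAD1* took 61.1% and 61.7% of the *PSAD* reads in lines #3 and #6 and 61.5% in Col-0, with overlapping intervals. *PSAE1* took 84.8% and 83.3% of the *PSAE* reads in lines #3 and #6 and 84.98% in Col-0, and the interval of line #6 (82.5 to 84.05) overlapped neither that of line #3 (84.08 to 85.6) nor that of Col-0 (84.1 to 85.8). The PSI genes summed to 6377 and 5917 CPM in lines #3 and #6 and 6602 in Col-0.

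Among the PSII subunits the largest difference was found in the pair of genes for small PSII proteins annotated as subunit T (*PSBTN1*) and as the 5 kD protein (*PSBTN2*). *PSBTN1* had 4758 and 3726 reads in lines #3 and #6 and 2584 in Col-0, or 436 and 320 CPM against 264 (log2 fold change 0.52, SE 0.23, unadjusted p = 0.040, adjusted p = 0.640 in edgeR). *PSBTN2* had 1511 and 1246 reads against 869, or 138 and 107 CPM against 88.8 (0.47, SE 0.20, unadjusted p = 0.038, adjusted p = 0.630 in edgeR). Both genes were above Col-0 in both lines and higher in line #3 than in line #6, by a similar factor. *PSBTN1* accordingly took 75.9%, 74.9% and 74.8% of the pair's reads in line #3, line #6 and Col-0, and the intervals overlap. *PSBTN2* shares 45.3% of its windows with *AT1G51402*, a locus that overlaps it on the chromosome and had 543 and 434 reads in lines #3 and #6 and 369 in Col-0, so part of its count could belong to that locus.

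*PSBR* had the lowest fold change of the PSII genes, at 1796 and 1937 CPM in lines #3 and #6 and 2271 in Col-0 (−0.28, SE 0.25, adjusted p = 0.899 in edgeR). The extrinsic proteins PsbO, PsbP and PsbQ shield the manganese cluster that splits water. Of these, *PSBP1* was at 1065 and 1033 CPM in the OE lines and 1114 in Col-0 (−0.087, SE 0.23), and *PSBO2* had log2 fold change 0.14 (SE 0.21). *PSBO2* took 24.7% and 26.8% of the *PSBO* reads in lines #3 and #6 and 24.97% in Col-0, the rest being those of *PSBO1*, which the wording of its description keeps out of the members. *PSBP2* was almost silent, with 27 and 24 reads in lines #3 and #6 and 20 in Col-0, or 0.232%, 0.199% and 0.183% of the *PSBP* reads. *PSBQ1* took 48.2% in line #3, 44.6% in line #6 and 46.6% in Col-0 of the *PSBQ* reads, so the lines lay on both sides of Col-0. *PSBW*, a small membrane subunit, had log2 fold change −0.12 (SE 0.21).

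The summed reads of the groups were compared within each library, where no scaling enters. These sums are RNA of the nuclear members only and do not measure the amounts of the complexes. LHCII reads per PSII read came to 1.99 (95% counting interval 1.97 to 2.004) in line #3 and 1.83 (1.81 to 1.84) in line #6, against 1.65 (1.63 to 1.66) in Col-0. LHCI reads per PSI read came to 0.793 and 0.771 in lines #3 and #6 and 0.732 in Col-0, and LHCII reads per LHCI read to 2.46 and 2.43 against 2.21. The OE lines were above Col-0 in these 3 ratios, and their differences from Col-0 exceeded the difference between them. PSII reads per PSI read came to 0.980 in line #3, 1.03 in line #6 and 0.984 in Col-0, with Col-0 between the lines. This order did not hold in other sets of genes: the PSII to PSI ratio was 1.37 and 1.42 in lines #3 and #6 and 1.36 in Col-0 with the listed genes *LHCB1.1*, *LHCB7*, *PSBO1* and *PSBS* added, and 0.699 in each line and 0.640 in Col-0 without *LHCB1.3* and *PSBR*, both lines then being above Col-0. The ratio of LHCII to PSII rested largely on *LHCB1.3* and *PSBR*: without these genes it was 2.12 and 2.08 in lines #3 and #6 and 2.04 in Col-0, and the excess of the OE lines over Col-0 was then about as small as the difference between the lines. With the 4 listed genes added it was 1.61 and 1.49 in lines #3 and #6 and 1.36 in Col-0. With 1 Col-0 pool the spread of this ratio among wild-type pools is unknown and no test was made.

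**Figure D3:**
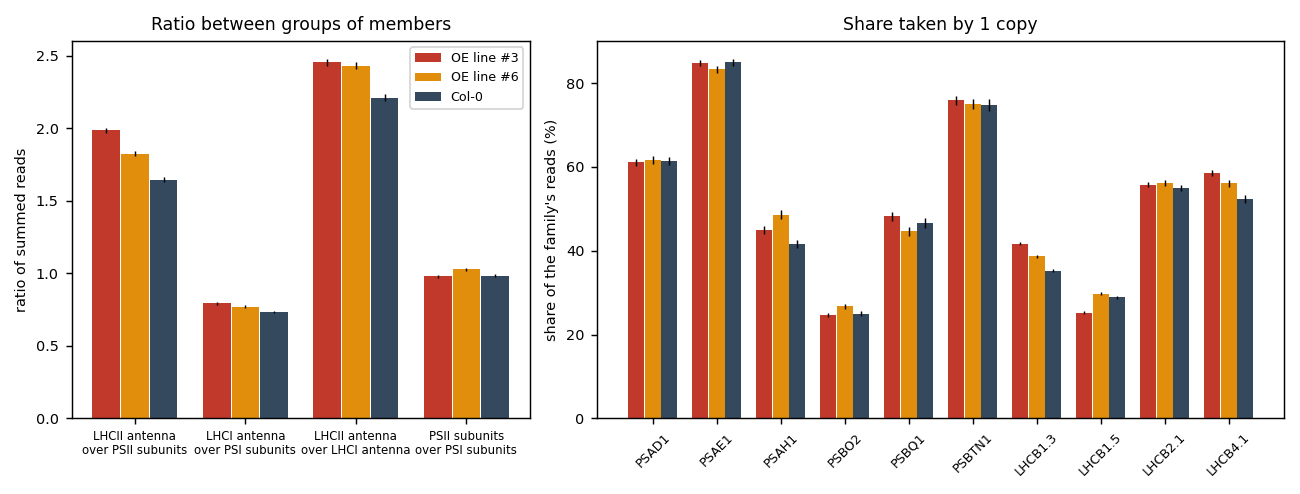
Left, ratio of the summed reads of 2 groups of members; right, share of a family's reads taken by 1 of its copies in percent; bars stand for OE line #3, OE line #6 and Col-0, and error bars are 95% Wilson intervals for counting error. LHCII over PSII is 1.99 and 1.83 in the OE lines and 1.65 in Col-0, and *LHCB1.3*, *LHCB4.1* and *PSAH1* take a larger share in both OE lines than in Col-0.

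Every member outside the named subunit and antenna genes was placed among the assembly and related genes. They include *AT1G52220*, also named *CURT1C* for curvature thylakoid, and the pseudogene *AT2G07688*. The others are mainly factors that build or repair the photosystems and PsbP-domain proteins of the thylakoid lumen whose functions are mostly less well known. *PPD2*, one of these PsbP-domain proteins, had the lowest fold change of all members, with 143 and 148 reads in lines #3 and #6 and 199 in Col-0. Its 13.1 and 12.7 CPM in the OE lines and 20.3 CPM in Col-0 gave a log2 fold change of −0.66 (SE 0.20, unadjusted p = 0.0051, adjusted p = 0.314 in edgeR). *AT3G63540*, of the same PsbP family, had the highest, 0.20 (SE 0.18). *THF1*, a thylakoid formation factor, *PSB27-1*, a PSII repair factor, and *HCF136*, which is needed to build the PSII reaction center, had the highest levels of the group per kilobase, with log2 fold changes of −0.17 (SE 0.20), −0.14 (SE 0.18) and −0.20 (SE 0.19). Both OE lines were below Col-0 for 14 of the 19 tested genes, above it for 3, and on either side of it for 2, against 34.6% of all tested genes with both lines below. The median log2 fold change of the group was −0.16. A further 17 genes were listed by name as assembly and related but escape the annotation wording. Both lines were below Col-0 for 15 of them, with a median of −0.21. None was called by edgeR, and the 1 at an unadjusted p under 0.05 was *PQL2* (log2 fold change −0.57, SE 0.21). *PPL2*, *PQL1* and *PQL2* are also named as parts of the photosynthetic NDH subcomplex, so this list does not hold photosystem assembly genes alone. The counts of both sets rest on the same single Col-0 pool and are not independent of each other.

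One member stood apart between the OE lines. *AT2G07688*, annotated as a pseudogene similar to the plastid D1 protein, had 1689 reads in line #3, 615 in line #6 and 1116 in Col-0. In CPM it was at 155, 52.9 and 114, so that Col-0 lay between the lines. It was the only member past 2-fold in any comparison of single libraries, being lower in line #6 than in Col-0 (4.52% of all tested genes past 2-fold in that comparison) and higher in line #3 than in line #6 (4.15%), and no member was past 2-fold between line #3 and Col-0 (5.94%). The plastid gene *psbA*, which encodes D1, had 39259 reads in line #3, 17155 in line #6 and 29821 in Col-0, and the ribosomal RNA share given above was likewise highest in line #3 and lowest in line #6. The TAIR10.1 transcript of the pseudogene has 393 bases, and 0 of its 294 windows, cut as for the *LHCB1* copies, were shared with another gene. Its model in the deposited table has 1095 bases, so whether reads of *psbA* were counted for that longer model was not tested.

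Line #3 was above line #6 for 51 of the 62 tested members, with a median log2 ratio of 0.14, and for 9361 of the 18802 tested genes. The difference was seen in each group: 11 of 13 LHCII genes, 6 of 6 LHCI genes, 11 of 13 PSI genes, 9 of 11 PSII genes and 14 of 19 assembly and related genes were higher in line #3. The share of ribosomal RNA also differed most between these lines. With DESeq2 size factors the median was 0.138, and with reads of nuclear genes other than ribosomal RNA it was 0.195. With total reads, which include ribosomal RNA, it became −0.054, the only scaling tried in which the direction of this difference turned. The median log2 ratio to Col-0 was 0.0020 for line #3 and −0.11 for line #6.

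**Figure D4:**
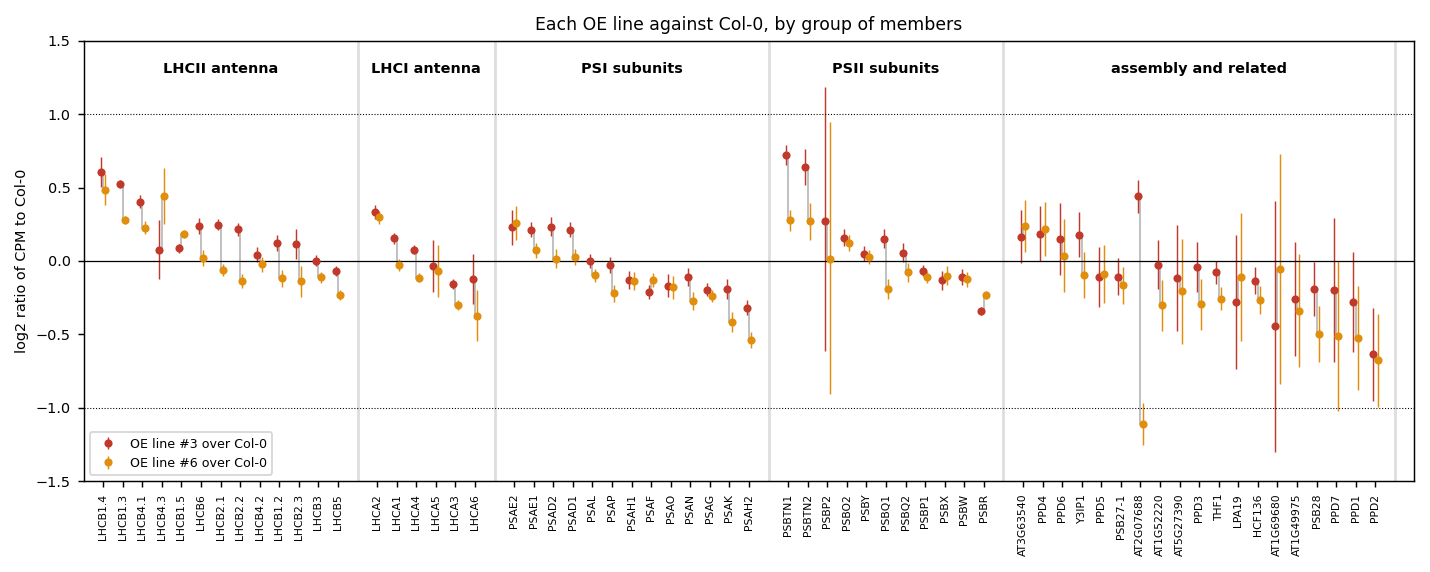
Log2 ratio of CPM of OE line #3 and OE line #6 to Col-0 for each tested member, by group, with 95% exact counting intervals, and dotted lines at 2-fold. Only *AT2G07688* in line #6 lies past 2-fold, the LHCII genes lie mostly at or above 0 in line #3, and the assembly and related genes lie mostly below 0.

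To show which regulatory letters lie before these genes, the 250 bases upstream of the annotated start were read from the RefSeq TAIR10.1 genome for 61 members and for 27443 coding genes. The heat shock element core GAANNTTC, the palindrome to which heat stress factors bind, was present in 3 of the 61 member promoters (4.92%) and in 9.55% of all promoters, and the 3 were *LHCB5*, *AT1G52220* and *AT5G27390*. The G-box CACGTG was found in 14 members (23.0%, against 6.49% of all promoters), the I-box GATAAG in 13 (21.3% against 12.3%) and the CCAATC box in 13 (21.3% against 10.2%). The CCAATC box lay before 7 of 13 LHCII genes, 3 of 6 LHCI genes and 0 of 13 PSI subunit genes, and the G-box before 5 of 11 PSII genes. Every motif was searched on both strands, no matches overlap in the sequences printed here, and a match is a description of letters and not a binding site. The sequences below run 5′ to 3′ in the direction of the gene and end at the base before its start, with G-box, I-box, CCAATC box and heat shock element letters in capitals. The *PSBTN* pair is shown because its copies had like differences, *LHCB4.1* and *LHCB4.2* because their shares differed, *LHCB1.3* as the antenna gene with the most reads, and *LHCB5* as the only antenna gene with the heat shock element core.
PSBTN1 (AT3G21055, chr3:7377227-7377476, minus strand): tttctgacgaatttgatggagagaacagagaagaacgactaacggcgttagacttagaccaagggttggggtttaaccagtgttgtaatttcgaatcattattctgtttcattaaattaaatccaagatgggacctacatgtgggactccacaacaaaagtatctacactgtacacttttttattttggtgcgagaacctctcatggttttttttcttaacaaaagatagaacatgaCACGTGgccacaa
PSBTN2 (AT1G51400, chr1:19052583-19052832, minus strand): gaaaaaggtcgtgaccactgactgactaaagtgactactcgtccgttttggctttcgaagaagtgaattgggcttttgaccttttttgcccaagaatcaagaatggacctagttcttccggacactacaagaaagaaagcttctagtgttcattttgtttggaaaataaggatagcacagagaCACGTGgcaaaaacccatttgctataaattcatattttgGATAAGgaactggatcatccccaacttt
LHCB4.1 (AT5G01530, chr5:208616-208865, plus strand): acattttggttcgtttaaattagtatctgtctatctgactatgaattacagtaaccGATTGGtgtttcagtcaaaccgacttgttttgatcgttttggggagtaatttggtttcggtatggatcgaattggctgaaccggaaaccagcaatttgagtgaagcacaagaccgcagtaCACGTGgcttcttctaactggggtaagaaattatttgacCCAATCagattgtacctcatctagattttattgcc
LHCB4.2 (AT3G08940, chr3:2717307-2717556, plus strand): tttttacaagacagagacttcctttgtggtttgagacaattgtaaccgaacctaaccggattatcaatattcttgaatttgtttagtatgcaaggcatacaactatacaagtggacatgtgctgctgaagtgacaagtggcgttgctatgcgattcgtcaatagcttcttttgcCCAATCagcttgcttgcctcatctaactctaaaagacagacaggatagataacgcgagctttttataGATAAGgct
LHCB1.3 (AT1G29930, chr1:10477635-10477884, plus strand): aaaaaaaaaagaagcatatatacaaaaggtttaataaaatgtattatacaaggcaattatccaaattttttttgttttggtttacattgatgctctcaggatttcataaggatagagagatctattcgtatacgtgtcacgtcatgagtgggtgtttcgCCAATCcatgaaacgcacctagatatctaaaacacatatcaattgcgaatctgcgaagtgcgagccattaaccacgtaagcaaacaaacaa
LHCB5 (AT4G10340, chr4:6407757-6408006, plus strand): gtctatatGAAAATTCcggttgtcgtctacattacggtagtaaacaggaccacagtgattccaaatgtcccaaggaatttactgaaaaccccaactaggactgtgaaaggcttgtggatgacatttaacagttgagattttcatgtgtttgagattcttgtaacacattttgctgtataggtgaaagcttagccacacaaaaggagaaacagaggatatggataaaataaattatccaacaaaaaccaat

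Both *PSBTN* promoters hold a G-box, 13 bases before the start in *PSBTN1* and 67 bases in *PSBTN2*, and *PSBTN2* also holds an I-box at 28 bases. *LHCB4.1* holds a G-box at 74 bases and a CCAATC box on each strand, at 35 and 194 bases, whereas *LHCB4.2* holds 1 CCAATC box at 76 bases and an I-box at 9 bases but no G-box. *LHCB1.3* holds 1 CCAATC box at 91 bases. The heat shock element core of *LHCB5* lies 242 bases before the start, and this gene had log2 fold change −0.15 (SE 0.24), as given above.

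Genes that work beside the photosystems were taken from lists by function, and none of 58 tested was called by edgeR (4 at an unadjusted p under 0.05, smallest adjusted p = 0.132) or by DESeq2 (2 at an unadjusted p under 0.05). Over all genes edgeR called 0.425% and picked 7.38% at an unadjusted p under 0.05, so 4 of 58 was near the share of all genes. The 4 were *OHP1*, *OHP2*, *LIL3.1* and *GLK2*, each with fewer reads in both OE lines than in Col-0. *OHP2*, a one-helix protein that helps to assemble the PSII core, had 82.1 and 85.3 CPM in lines #3 and #6 and 140 in Col-0, and its log2 fold change of −0.74 had an SE of 0.18 (adjusted p = 0.132 in edgeR), and its partner *OHP1* had 34.3 and 33.4 CPM against 54.4 (−0.68, SE 0.17). *GLK2*, a transcription factor that activates antenna and chlorophyll synthesis genes, had log2 fold change −0.40 (SE 0.18). *OHP1* and *LIL3.1*, an antenna-like protein of chlorophyll synthesis, were named after their values had been seen. *OHP1*, *OHP2* and *LIL3.1* belong to a list of 8 stress-related antenna-like proteins, whose median was −0.30. In that list both OE lines were below Col-0 for 5 genes (34.6% of all tested genes) and above it for 0 (34.9% of all tested genes). Col-0 lay between the lines for 3. *ELIP1*, an early light-induced protein, was the only gene of this list with a fold change above 0, at 41.3 and 60.3 CPM in lines #3 and #6 and 42.5 in Col-0 (0.26, SE 0.22). *PETE1* (plastocyanin) had log2 fold change 0.17 and *PGRL1A* (cyclic electron flow) −0.36 among the electron transport genes, *HEME1* 0.31 and *CHLG* −0.26 in chlorophyll synthesis, and the light regulator *HY5*, in the same list as *GLK2*, 0.34. The median of the 22 tested chlorophyll synthesis genes was −0.014 and that of the 14 electron transport and ATP synthase genes −0.12, and that of the 14 antenna targeting and regulator genes was 0.049.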

How the data were processed

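RNA was measured in 3 libraries as HiSeq reads of 100 bases. Mapping was to TAIR10, and the value the authors deposited for each gene is a raw read count. The submitters' processing notes name CASAVA 1.7. The aligner, the counter and the treatment of multiply mapped reads were not given in the sources used here. RPKM, fold, log2 and q-value columns hold the authors' own comparisons and were not used. Blank cells belong to genes at 0 in both libraries of a pair and were set to 0.

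The main comparison set the 2 OE lines against the single Col-0 library in edgeR (version 4.0.16, under R 4.3.3) with TMM factors of 0.945 in line #3, 1.08 in line #6 and 0.981 in Col-0, using estimateDisp, glmQLFit and glmQLFTest. A gene was tested when 1 library or more had at least 10 reads, which left 18802 genes and 1 residual degree of freedom. The prior degrees of freedom, which weigh the spread shared over genes, were 13.6. SE is the absolute log2 fold change divided by the square root of F. The fit was tested on simulated data. CPM are counts scaled to a common library size with the TMM factors, and levels per kilobase use the deposited length. Intervals cover counting error only. Other scalings, other read filters, DESeq2 (version 1.42.0), summed *LHCB1* and *LHCB2* copies and each line by itself were tried as alternatives.

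The members and lists were chosen with earlier results of these data known. Named genes are the 3 highest members of each group per kilobase, the highest and lowest fold change, those furthest apart between the lines, all copies compared, and the highest and lowest fold change of each list. Of the 63 members, 61 had a promoter, 15 shared a window of 100 bases with another gene, and 9 had the same transcript length in TAIR10.1 as in the table. The tomato transgene was not analysed here.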

Additional observations from a re-analysis of the deposited data

How the results depend on the processing

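No member and no gene of the pathway lists was called under any of the alternative scalings, read filters or DESeq2, nor was a member called with the *LHCB1* and *LHCB2* copies summed. Over all genes the calls numbered 80 in edgeR as reported, 81 with DESeq2 size factors, 103 with total reads, 30 with reads of nuclear genes other than ribosomal RNA, 41 with every gene that had a read, 42 with at least 10 reads in every library, 77 with summed copies and 44 with DESeq2. Total reads shifted the median of all genes to 0.050 and nuclear reads to 0.056 (log2). The summed PSII level, −0.076 on the log2 scale as reported, became −0.033 with total reads, −0.025 with nuclear reads, 0.024 without *PSBR* and −0.0083 as a median of genes. With total reads, 0 members were past 2-fold in line #6 against Col-0, their median there became 0.026 and the median of line #3 over line #6 became −0.054. Of 53 named genes, *LHCA4*, *LHCB2.3*, *PSBQ1* and *PSBQ2*, all near 0 as reported, changed sign: to 0.024, 0.030, 0.025 and 0.031 with total reads and to 0.039, 0.047, 0.046 and 0.044 with nuclear reads. Without line #3 or line #6, which leaves values with no test, the summed log2 level lay between −0.16 and −0.050 for PSI, −0.097 and −0.056 for PSII, −0.084 and 0.064 for LHCI, 0.053 and 0.21 for LHCII, and −0.27 and −0.0041 for assembly and related genes. Chosen after seeing the data, leaving out *AT2G07688* kept the last group at −0.13. In the OE lines the ratios of LHCII to PSII, LHCII to LHCI and PSII to PSI, 1.91, 2.44 and 1.0035 on average, became 1.55, 2.77 and 1.39 with the 4 genes the rule misses, and 2.097, 1.87 and 0.699 without *LHCB1.3* and *PSBR*, the same ratios being 1.36, 2.53 and 1.36 and then 2.04, 1.79 and 0.640 in Col-0. No paired analysis was possible because Col-0 has 1 library. A single Col-0 pool limits every comparison. Differences within the SE given beside each gene could not be resolved, and differences larger than the SE did not pass the test either. Among these was *OHP2*, with log2 fold change −0.74 and SE 0.18 (adjusted p = 0.132 in edgeR).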
